A study of Mus musculus with 6 samples.

Results

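Interferon-stimulated genes are the genes that cells switch on when an interferon binds its receptor at their surface. Type I interferons act through a complex that holds STAT2 and IRF9 and binds the interferon-stimulated response element (ISRE), and interferon-gamma acts through the gamma-activated site (GAS). The products sense viral RNA, block translation or entry of viruses and restrain other intracellular microbes, and microglia, the resident immune cells of the brain, are known to respond strongly to interferons. A list of 39 such genes was followed by gene symbol in RNA-seq of oligodendrocyte progenitor cells (OPCs), and all 39 were among the 18211 genes of the table.

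The libraries were 3 from wildtype (WT) C57BL/6 mice and 3 from NG2-CreERTM: DISC1 exon3 fl/+ mice (DISC1-Δ3). In the latter, a tamoxifen-activated Cre under the NG2 promoter, which is active in OPCs and in pericytes, removes exon 3 of 1 allele of Disc1, a gene linked to psychiatric illness. Both groups had tamoxifen by gavage on 4 days from P4 to P7, and cells were taken from the brain at P7 by immunopanning on the OPC surface receptor PDGFRα. Labels number the libraries within each group and do not say whether 1 or several mice went into each, so p-values measure the spread between these libraries.

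Interferon-stimulated genes were lower in DISC1-Δ3 libraries as a group. Of the 39, 29 (74.4%) fell, none rose and 10 did not pass the test. The fall was moderate, with a median log2 fold change (DISC1-Δ3 over WT) of -0.47 and a range over the members from -0.91 for Irf1 to 0.29 for Ifit1. Among all 13792 genes tested, 19.5% fell and 20.4% rose, and the median log2 fold change was 0.0075. A gene counts as fallen or risen where the Benjamini-Hochberg adjusted p of the edgeR fit, over all tested genes, is under 0.05, and no member had an unadjusted p under 0.05 in the upward direction. DESeq2 also called 0 members higher and called 28 lower. DISC1-Δ3 replicate 3 stood apart from the other libraries of its group across all genes, and without it 31 members fell, none rose and the median was -0.46.

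The summed level of the 39 genes, in reads per kilobase of transcript scaled to the library's total (RPKM), was 1339, 1328 and 1317 in the WT libraries and 986, 959 and 948 in the DISC1-Δ3 libraries, a ratio of means of 0.726. Each DISC1-Δ3 library lay far below each WT library on this sum. Lgals3bp, Ifi27l2a, Ifitm3 and Bst2 made up 65.4% of the WT sum, so the sum mostly follows these genes. The median member, on log2 CPM (counts scaled to library size) relative to the WT mean, stood at -0.47, -0.47 and -0.45 in the DISC1-Δ3 libraries and between -0.01 and 0.03 in WT, against a pooled SD within groups of 0.017. For 27 members (69.2%) all DISC1-Δ3 RPKM values were below all WT values, where 16.1% of all tested genes had this order.

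**Figure D1:**
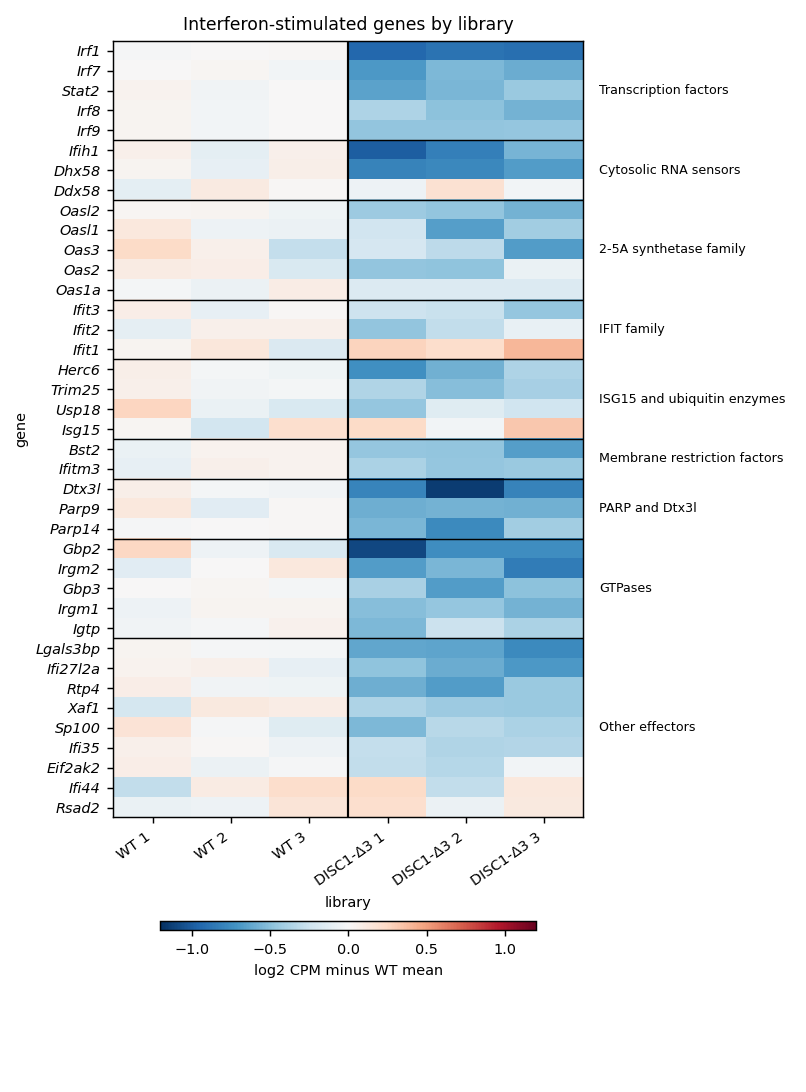
Level of each of the 39 interferon-stimulated genes (rows, grouped by role) in the 3 WT and 3 DISC1-Δ3 libraries (columns), as log2 CPM after TMM scaling minus the WT mean of that gene. The 5 transcription factors and 5 GTPases are blue in every DISC1-Δ3 library, whereas Isg15, Ifit1, Rsad2, Ddx58 and Ifi44 are pale or red in most.

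The labelled cell type bears on these values. Microglial markers were abundant in all 6 libraries: the summed RPKM of 18 of them was 32.1 to 34.1 times that of 10 OPC markers in WT libraries and 18.4 times in each DISC1-Δ3 library. All 18 microglial markers fell in DISC1-Δ3, with a median log2 fold change of -0.49 and a range from -0.69 to -0.23. Their summed RPKM was between 18271 and 18755 in WT libraries and between 12925 and 13339 in DISC1-Δ3 libraries, a ratio of means of 0.714, beside 0.726 for the interferon-stimulated genes. C1qa, C1qb and C1qc, with WT means of 3312, 3099 and 3269 RPKM, made up much of the WT mean sum of 18478. The microglial sum therefore largely follows these genes, which fell by 0.67, 0.69 and 0.60 on the log2 scale. OPC markers went the other way, with 8 of 10 higher, 1 lower and a summed ratio of 1.28. In bulk RNA, fewer cells of a type and less RNA per cell cannot be told apart, and the part of microglial RNA in the fall of the interferon-stimulated genes was not tested beyond the rescaled values given further on. The target gene Disc1, whose exon 3 alone is removed, was at 3.51, 3.34 and 3.81 RPKM in WT and 2.86, 2.44 and 2.85 in DISC1-Δ3, a log2 fold change of -0.45 (SE 0.088, adjusted p = 0.000528); a count over the whole gene does not measure the exon itself.

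The following promoter stretches show what matches to both elements look like in this list. They were chosen, among members with a match, as 4 that fell and 3 that did not pass the test; Dtx3l, which had the next lowest log2 fold change after Irf1, holds neither motif in its window and is not shown. They come from RefSeq on GRCm38.p6, the same build as the mm10 named in the submitters' processing notes, and run 5′ to 3′ along the gene's strand. Capitals mark matches on either strand to the ISRE core, GAAANNGAA, and to the GAS, TTCNNNGAA, and overlapping matches are run together.
Irf1, chr11:53769904-53769952, plus strand: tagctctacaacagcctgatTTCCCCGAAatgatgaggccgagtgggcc
Gbp2, chr3:142620585-142620633, plus strand: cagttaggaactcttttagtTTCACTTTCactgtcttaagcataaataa
Igtp, chr11:58199491-58199550, plus strand: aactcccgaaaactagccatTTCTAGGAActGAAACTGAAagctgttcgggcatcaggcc
Irgm2, chr11:58214882-58214941, plus strand: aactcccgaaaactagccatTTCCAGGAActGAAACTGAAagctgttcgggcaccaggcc
Isg15, chr4:156200856-156200916, minus strand: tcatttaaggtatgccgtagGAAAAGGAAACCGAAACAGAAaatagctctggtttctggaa
Ifit1, chr19:34640760-34640833, plus strand: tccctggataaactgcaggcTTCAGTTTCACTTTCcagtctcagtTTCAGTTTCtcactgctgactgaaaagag
Oas1a, chr5:120907511-120907565, minus strand: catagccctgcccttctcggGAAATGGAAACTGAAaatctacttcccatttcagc

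Irf1 carries a GAS upstream of its start site and no ISRE core in its windows, while Isg15 and Ifit1 each carry 3 ISRE cores upstream of the start and no GAS. Igtp and Irgm2, neighbours on chromosome 11, each hold a GAS followed at once by an ISRE core. Oas1a also holds a GAS, at -98 from its start site, which lies outside the stretch shown. Windows of 300 bases, 250 before and 50 after the start, were given for 32 of the 39 genes; Dhx58, Ifi27l2a, Oas2, Parp14, Parp9, Rtp4 and Usp18 had none. An ISRE core was found in 19 of the 32 (59.4%) and a GAS in 10 (31.2%), beside 9.76% and 9.55% of 27025 genes with a window. Among members that fell, 11 of 23 with a window held an ISRE core and 7 a GAS. Among those that did not pass the test, 8 of 9 held an ISRE core and 3 a GAS. A match describes the letters only and does not show that a factor binds there.

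All 5 transcription factors of the list fell, with a median log2 fold change of -0.54. Irf1, which drives interferon-gamma responses and antigen presentation genes, had the lowest log2 fold change of the 39. Its RPKM was 65.53, 65.22 and 66.27 in WT and 35.91, 37.16 and 37.71 in DISC1-Δ3, a log2 fold change of -0.91 (SE 0.048, adjusted p = 7.07e-11). The groups were far apart and the libraries within each nearly equal. Irf1 lies at chr11:53770014-53778374.

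Irf7 (chr7:141263183-141266499), the factor that amplifies type I interferon production, was at 33.31, 33.42 and 32.47 RPKM in WT and 21.67, 23.96 and 23.35 in DISC1-Δ3 (log2 fold change -0.61, SE 0.064, adjusted p = 5.69e-07). STAT2 and IRF9 work together in the type I interferon complex. Stat2 (chr10:128270498-128292853) was at 11.47, 10.93 and 11.17 RPKM in WT and 7.57, 8.04 and 8.75 in DISC1-Δ3 (log2 fold change -0.54, SE 0.069, adjusted p = 5.86e-06). For Irf9 (chr14:55603985-55610030) the WT values were 27.59, 26.1 and 26.73 RPKM and the DISC1-Δ3 values 20.42, 20.41 and 20.72 (log2 fold change -0.47, SE 0.058, adjusted p = 4.99e-06). Neither gene overlapped between the groups. Irf8, a factor that microglia and other myeloid cells need to develop, fell by 0.48 on the log2 scale (SE 0.051, adjusted p = 7.91e-07). The log2 fold changes of these 4 factors lay between -0.61 and -0.47, above that of Irf1.

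Cytosolic RNA sensors recognise viral RNA and start interferon production. Ifih1, which encodes MDA5 for long double-stranded RNA, was at 2.18, 2.33 and 2.69 RPKM in WT and 1.21, 1.6 and 1.7 in DISC1-Δ3 (log2 fold change -0.78, SE 0.14, adjusted p = 0.000234). Dhx58, which encodes LGP2, a helper of MDA5, was at 13.09, 11.85 and 13.37 RPKM in WT and 7.7, 7.86 and 8.61 in DISC1-Δ3 (log2 fold change -0.74, SE 0.084, adjusted p = 1.39e-06). In both genes every DISC1-Δ3 library was below every WT library. Ddx58, which encodes RIG-I, the sensor of short RNA with a 5′ triphosphate, ranged from 4.15 to 4.87 RPKM in WT and from 4.56 to 5.37 in DISC1-Δ3, so the groups overlapped, and its log2 fold change was 0.03 (SE 0.092, adjusted p = 0.809).

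Oligoadenylate synthetases make the 2-5A messenger that activates RNase L, and Oasl1 and Oasl2 encode related proteins. Of the 5 genes of this family 3 fell: Oasl2 by 0.49, Oasl1 by 0.43 and Oas2 by 0.33 on the log2 scale (adjusted p = 1.69e-05, 0.0133 and 0.03). For Oas2 the RPKM ranges overlapped, from 4.69 to 5.94 in WT and from 3.88 to 5.51 in DISC1-Δ3. Oas3 was low, with 34 to 54 reads in a library, and its log2 fold change was -0.40 (SE 0.22, adjusted p = 0.155). Oas1a, at 31.83 to 34.14 RPKM in WT and 30.03 to 32.11 in DISC1-Δ3, had a log2 fold change of -0.16 (SE 0.065, adjusted p = 0.0522). Of the stretches of 50 bases in Oas1a transcripts, the read length used, 57.6% also occur in other genes, mainly Oas1g, so its reads could be divided between them. Leaving out 1 library moved 3 of these calls. Oas2 lost its call without WT replicate 1 or 2 or DISC1-Δ3 replicate 1 or 2 (adjusted p = 0.125, 0.119, 0.0744 and 0.0839), Oasl1 lost it without WT replicate 1 or DISC1-Δ3 replicate 2 (adjusted p = 0.0699 and 0.0575), and Oas1a passed without DISC1-Δ3 replicate 3 (adjusted p = 0.0411) and, with all libraries, under median-of-ratios scaling (adjusted p = 0.0467).

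IFIT proteins bind viral RNA and block its translation, and the genes form a cluster on chromosome 19. Ifit3 (chr19:34583119-34588982) was at 7.57, 6.61 and 7.15 RPKM in WT and 6.24, 6.16 and 5.54 in DISC1-Δ3 (log2 fold change -0.33, SE 0.11, adjusted p = 0.0235), and 51.2% of its 50-base stretches are shared, mainly with Ifit3b. Ifit1 (chr19:34640889-34650009) was at 0.79, 0.85 and 0.69 RPKM in WT and 0.98, 0.94 and 1.1 in DISC1-Δ3. All 3 DISC1-Δ3 values of Ifit1 were above all WT values, an order no other member had, but there were only 27 to 44 reads in a library and the log2 fold change of 0.29 (SE 0.22, adjusted p = 0.311) did not pass the test. Ifit2 stood at -0.28 on the log2 scale (SE 0.11, adjusted p = 0.0556). Ifit3 lost its call without WT replicate 1 or 3 or DISC1-Δ3 replicate 3 (adjusted p = 0.0914, 0.0683 and 0.0526), and Ifit2 passed without DISC1-Δ3 replicate 3 (adjusted p = 0.00489). Ifit2 also passed with all libraries under median-of-ratios scaling (adjusted p = 0.0431).

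ISG15 is a ubiquitin-like protein that is attached to other proteins after interferon, and Usp18 encodes the enzyme that removes it. Isg15 (chr4:156199424-156200818) was at 17.72, 14.72 and 19.83 RPKM in WT and 21.22, 17.67 and 23.16 in DISC1-Δ3. The groups overlapped, and the log2 fold change was 0.17 (SE 0.13, adjusted p = 0.318). Usp18 was at -0.28 on the log2 scale (SE 0.14, adjusted p = 0.131). Herc6, the mouse ISG15 ligase, fell by 0.55 (adjusted p = 0.00247), and Trim25, a ubiquitin ligase that activates RIG-I, fell by 0.42 on the same scale (adjusted p = 5.62e-05).

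Membrane restriction factors were among the most abundant members. Ifitm3 (chr7:141009590-141010744), which blocks viral entry at endosomes, was at 176.66, 192.4 and 192.58 RPKM in WT and 149.93, 142.01 and 147.9 in DISC1-Δ3 (log2 fold change -0.43, SE 0.057, adjusted p = 8.22e-06). Bst2 (chr8:71534255-71537472), the tetherin that holds budding virions at the cell surface, was at 122.24, 129.8 and 131.28 RPKM in WT and 97.3, 96.5 and 87.02 in DISC1-Δ3 (log2 fold change -0.53, SE 0.064, adjusted p = 3.39e-06). Both were lower in every DISC1-Δ3 library than in any WT library.

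The PARP genes and Dtx3l lie close together on chromosome 16, and PARP9 and DTX3L form a complex that ubiquitinates histones and viral proteins. Dtx3l (chr16:35926515-35939027) was at 4.23, 3.95 and 3.89 RPKM in WT and 2.46, 1.92 and 2.47 in DISC1-Δ3 (log2 fold change -0.90, SE 0.11, adjusted p = 2.15e-06). Parp9 was at 10.0, 8.45 and 9.32 RPKM in WT and 6.35, 6.53 and 6.72 in DISC1-Δ3 (log2 fold change -0.58, SE 0.086, adjusted p = 2.97e-05). Exons of these genes overlap on opposite strands and the library protocol describes no step that marks strand, so reads in the overlap cannot be assigned to either. Parp14, a mono-ADP-ribosyltransferase, was at 3.92, 3.92 and 3.94 RPKM in WT and 2.81, 2.43 and 3.14 in DISC1-Δ3 (log2 fold change -0.57, SE 0.09, adjusted p = 5.95e-05), again with no overlap.

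All 5 GTPases fell, with a median log2 fold change of -0.52. These proteins attack the vacuoles of intracellular parasites and bacteria and are strongly induced by interferon-gamma. Gbp2 (chr3:142620663-142638008), a guanylate-binding protein, was at 6.61, 5.29 and 4.87 RPKM in WT and 2.73, 3.46 and 3.52 in DISC1-Δ3 (log2 fold change -0.86, SE 0.14, adjusted p = 8.11e-05). Irgm2 (chr11:58214977-58222783), an immunity-related GTPase, was at 2.25, 2.47 and 2.7 RPKM in WT and 1.62, 1.76 and 1.47 in DISC1-Δ3 (log2 fold change -0.70, SE 0.14, adjusted p = 0.000826). Neither gene overlapped between the groups, although Irgm2 had only 78 to 149 reads in a library. Gbp3 fell by 0.52, Irgm1 by 0.51 and Igtp by 0.39 on the log2 scale (adjusted p = 0.000548, 0.000151 and 0.00343). Igtp and Irgm2 overlap in annotated exons on the same strand, with 11.8% and 7.83% of their 50-base stretches found in another gene.

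The other effectors had 6 of 9 genes lower, with a median of -0.42. Lgals3bp (chr11:118392747-118401959), a secreted glycoprotein that binds galectin-3, was the most abundant member per length, at 351.71, 340.84 and 338.26 RPKM in WT and 234.31, 232.17 and 218.02 in DISC1-Δ3 (log2 fold change -0.67, SE 0.044, adjusted p = 1.52e-09). Ifi27l2a was at 220.04, 215.13 and 196.68 RPKM in WT and 156.21, 144.42 and 140.6 in DISC1-Δ3 (log2 fold change -0.59, SE 0.068, adjusted p = 1.73e-06). These abundant genes did not overlap between the groups. Rtp4, which encodes a receptor-transporting protein, was at 15.66, 14.29 and 14.26 RPKM in WT and 10.16, 9.7 and 11.52 in DISC1-Δ3 (log2 fold change -0.57, SE 0.094, adjusted p = 0.000102).

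Xaf1, Sp100 and Ifi35 fell by 0.43, 0.42 and 0.33 on the log2 scale (adjusted p = 0.00686, 0.00142 and 0.00637), and the RPKM ranges of Xaf1 overlapped. Eif2ak2, which encodes the kinase PKR that halts translation on double-stranded RNA, was at -0.21 on the log2 scale (SE 0.11, adjusted p = 0.135), and at -0.32 without DISC1-Δ3 replicate 3 (adjusted p = 0.0172). Rsad2, which encodes viperin, stood at 0.08 (adjusted p = 0.691), and Ifi44, with 17 to 29 reads in a library, at 0.00 (SE 0.28, adjusted p = 0.998). In sum, 17 of the 29 genes that fell did so by at least 0.5 on the log2 scale, and 0 reached 1.

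Microglial markers gave a scale on which the members could be set beside the summed reads of that cell type's markers. When libraries were scaled so that the 18 markers rather than all genes had equal overall level, a choice made after the data were seen, the median log2 fold change of the members was 0.07, and that of all tested genes 0.54. On this scale 29 members did not pass the test, 4 were lower and 6 were higher, where 80.7% of all tested genes were higher and 1.96% lower. The 4 still lower were Irf1 at -0.37 (SE 0.048, adjusted p = 8.24e-06), Dtx3l at -0.37 (adjusted p = 0.00904), Dhx58 at -0.21 (adjusted p = 0.046) and Lgals3bp at -0.14 (adjusted p = 0.00311). The 6 higher were Ifit1 at 0.83 (adjusted p = 0.00271), Isg15 at 0.71 (adjusted p = 0.000291), Rsad2 at 0.62 (adjusted p = 0.00116), Ddx58 at 0.57 (adjusted p = 7.25e-05), Oas1a at 0.37 (adjusted p = 0.000126) and Eif2ak2 at 0.33 (adjusted p = 0.0208). By the first scale, 26 members lay within the range of the 18 markers, 6 below it and 7 above it. That range ran from -0.69 to -0.23, so Lgals3bp, at -0.67 by the first scale, lay inside it, and Eif2ak2, at -0.21, just above it. The p-values on the marker scale treat the summed marker reads as exact, so they do not cover the spread among the markers. Which cells each member's RNA came from was not measured in these bulk libraries.

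**Figure D2:**
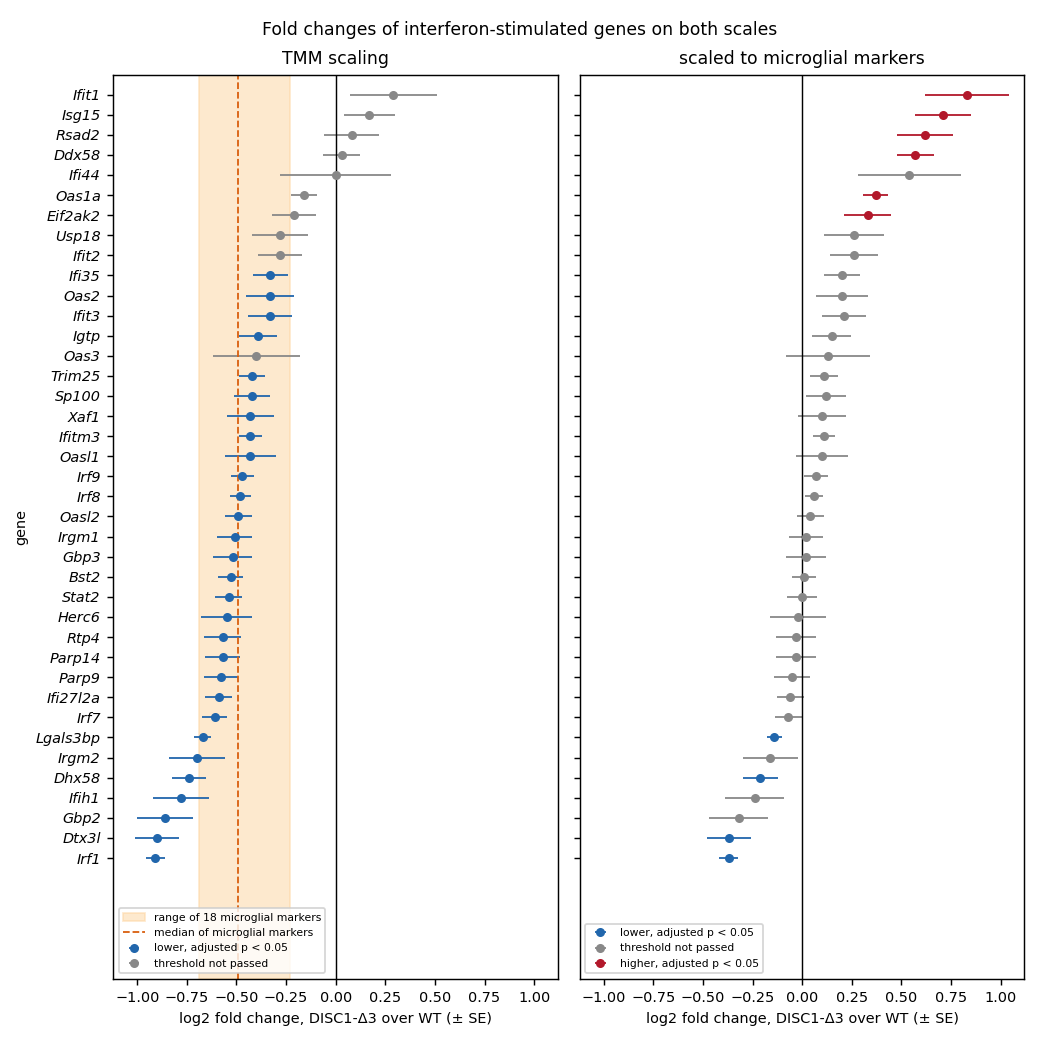
Log2 fold change (DISC1-Δ3 over WT, ± SE from the edgeR fit) of the 39 genes, with TMM scaling on the left and scaling to 18 microglial markers on the right; the band and dashed line on the left are the range and median of those markers. With TMM scaling 29 genes are lower and 26 lie inside the band, and on the microglial scale 4 are lower and 6 higher.

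Markers of other cell types moved in different directions. Monocyte and neutrophil markers fell in 4 of the 6 tested, with summed RPKM of 214 to 239 in WT and 151 to 166 in DISC1-Δ3, a ratio of means of 0.712. Lymphocyte markers fell in 2 of 5 tested, with a summed ratio of 0.705, so the sums of both lists moved about as much as those of the microglial markers and the interferon-stimulated genes. Cd79b had a mean of 23.8 RPKM in WT, of 30.8 for the whole lymphocyte list, so that sum mostly follows this gene. Of the 5 tested lymphocyte markers 4 were negative, and Cd3g was at 0.95 without passing (adjusted p = 0.0947). Markers of border-associated macrophages were divided: 3 of 7 fell, among them Mrc1 (log2 fold change -0.32, adjusted p = 0.000101), and the other 4 were positive without passing the test, with a median of 0.14 and a summed ratio of 0.891. Astrocyte markers fell in 6 of 8 and rose in 1, with a summed ratio of 0.954, and mature oligodendrocyte markers fell in 5 of 8, with a median of -0.39 and a summed ratio of 0.925. Neuronal markers rose in 7 of 7, with a median of 0.48 and a summed ratio of 1.26. Endothelial markers rose in 6 of 10, among them Cldn5, a tight junction gene, at 0.39 (adjusted p = 1.57e-05), with a summed ratio of 1.3. Pericyte markers rose in 5 of 6, with a summed ratio of 1.35. Of the defining microglial genes, Csf1r fell by 0.58, Tmem119 by 0.65, Cx3cr1 by 0.39 and P2ry12 by 0.23, while the OPC genes Pdgfra and Cspg4 rose by 0.48 and 0.46 on the log2 scale. The part of each cell type in the members' values was not tested.

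**Figure D3:**
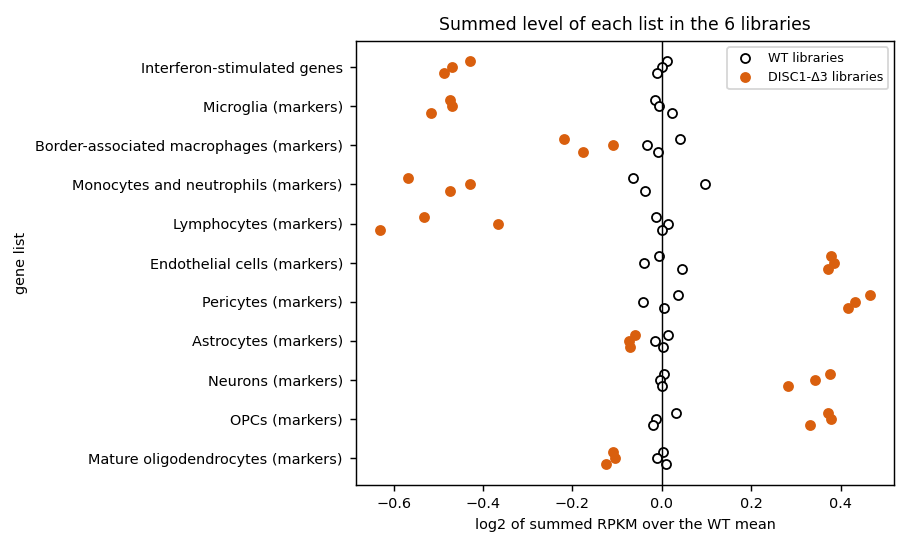
Summed RPKM of the 39 interferon-stimulated genes and of each cell type marker list in each library, as log2 over the WT mean; open points are the 3 WT libraries and filled points the 3 DISC1-Δ3 libraries. In DISC1-Δ3 the interferon-stimulated genes (ratio of means 0.726) lie on the left with the microglial (0.714), monocyte and neutrophil (0.712) and lymphocyte (0.705) markers. The pericyte (1.35), endothelial (1.3), OPC (1.28) and neuronal (1.26) markers lie on the right. The lymphocyte sum mostly follows Cd79b, and the microglial sum largely follows C1qa, C1qb and C1qc.

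Upstream of these genes, receptors and signal transducers were lower in 7 of 9 tested, with a median log2 fold change of -0.32. Both chains of the interferon-gamma receptor fell, Ifngr1 by 0.61 (adjusted p = 1.53e-08) and Ifngr2 by 0.39 (adjusted p = 1.05e-05). Of the type I receptor, Ifnar2 fell by 0.38 (adjusted p = 1.36e-05), whereas Ifnar1 stood at 0.11 (SE 0.047, adjusted p = 0.0831). Of the receptor-bound kinases, Tyk2 fell by 0.26 and Jak1 by 0.20 (adjusted p = 0.00373 and 0.00461), and Jak2 was at -0.07 (adjusted p = 0.577). Of the interferons themselves only 3 of the 21 listed were in the table. Ifnb1 was at 2.71, 2.32 and 2.64 RPKM in WT and 3.68, 2.86 and 2.79 in DISC1-Δ3 (log2 fold change 0.20, SE 0.25, adjusted p = 0.554), and Ifng, at 0.17 to 0.35 RPKM, was below the level tested.

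Sensors, adaptors and kinases that lead to interferon production fell in 12 of 17 genes and rose in 1, with a median of -0.46. Tlr7, the endosomal sensor of single-stranded RNA, fell by 1.14 (SE 0.065, adjusted p = 2.09e-10). Zbp1 and Aim2, sensors of nucleic acids, fell by 0.89 and 0.88, and Cgas, which makes the messenger that activates STING, by 0.74 (adjusted p = 3.24e-05, 3.11e-06 and 0.000149). Traf3, an adaptor named after its value was seen, was the gene that rose (0.32, adjusted p = 0.000364). Inhibitors of the pathway fell in 4 of 7 genes, Socs3 by 0.83 (adjusted p = 8.04e-11), Ptpn6 by 0.49, Irf2 by 0.39 and Pias1 by 0.38.

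A wider set of 47 further interferon-induced genes that were tested gave 31 lower and 2 higher, with a median of -0.45. The guanylate-binding protein genes Gbp4, Gbp7 and Gbp5 fell by 1.26, 1.18 and 0.95 (adjusted p = 0.00241, 3.38e-07 and 0.000104), and Nlrc5, the activator of MHC class I genes, by 0.91 (adjusted p = 7.57e-05). Gbp4 had only 10 to 49 reads in a library. It was at 0.6 to 0.87 RPKM in WT and 0.2 to 0.55 in DISC1-Δ3, near the lowest level tested. The 2 that rose were named after their values were seen. They were Cxcl10, a chemokine for T cells, at 80.28 to 88.26 RPKM in WT and 97.76 to 100.45 in DISC1-Δ3 (log2 fold change 0.15, SE 0.052, adjusted p = 0.0295), and Parp11 (0.37, adjusted p = 0.0114).

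**Figure D4:**
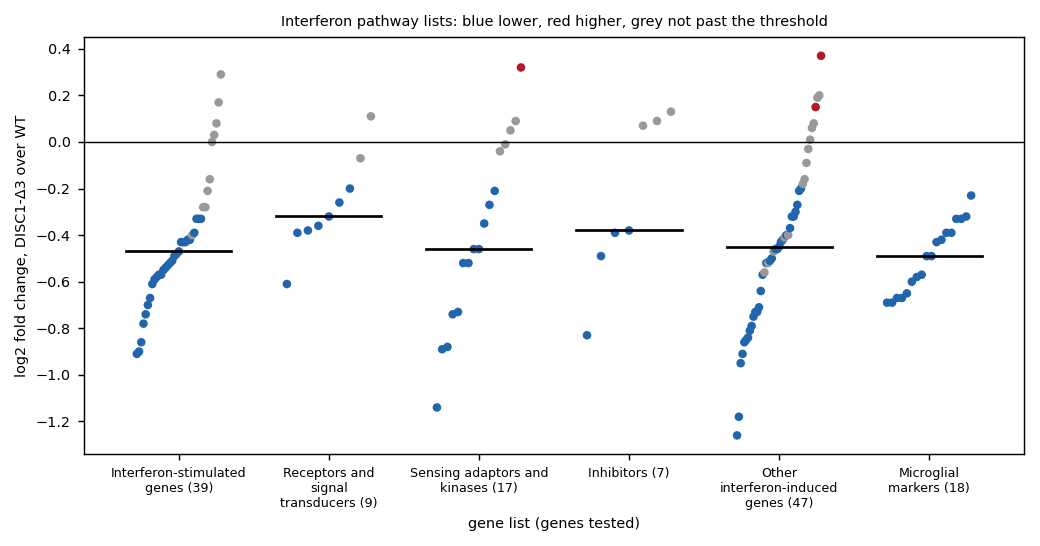
Log2 fold change (DISC1-Δ3 over WT) of each tested gene (points) in the interferon-stimulated genes, 4 lists of the interferon pathway and the microglial markers; bars are medians, and colours give genes lower (blue), higher (red) or not past the threshold (grey). The medians lie between -0.49 for microglial markers and -0.32 for receptors and transducers.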

How the data were processed

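RNA was isolated from immunopanned OPCs of 3 WT and 3 DISC1-Δ3 libraries and sequenced as single reads of 50 bases. The deposited table gives, per gene and library, expected counts that the authors made by assigning reads to genes (90.2% of values are whole) and RPKM that the authors computed from them. The submitters' processing notes name Bowtie2 2.2.5 and mm10; the counting tool and annotation are not given in the sources used here. The 4 columns of group averages were not used. Library totals were 13716619 to 16417219, so 1 read is 0.0609 to 0.0729 CPM.

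Counts were rounded and tested with edgeR 4.0.16 (R 4.3.3), quasi-likelihood, TMM scaling, genotype as the only term, for 13792 genes with RPKM of at least 0.5 in at least 3 libraries; DESeq2 1.42.0 and limma 3.58.1 were alternatives. The fitting code was tested on simulated counts. The fit's biological coefficient of variation was 5.44%. DISC1-Δ3 replicate 3 stood apart from its group on the second principal component (8.13% of variance). SE is that of the fitted log2 fold change. RPKM is scaled to library totals and not by TMM. Values in every library are given for the 12 largest falls and for Irf9, Stat2, Irf7, Isg15, Ifit1, Ifit3, Ifitm3 and Bst2, the receptor chains and kinases of the pathway are named whatever their result, and of each other pathway list at most the 4 passing genes of largest size; 1 gene under this rule is not reported here, and Traf3, Cxcl10 and Parp11 were named after their values were seen. The members and lists were chosen with earlier results of these data known, and scaling to microglial markers was added after the data were seen. Members' transcripts (GENCODE vM21) were searched for 50-base stretches shared with other genes. Besides the genes named above, the share was 12.5% for Herc6, 11.6% for Rtp4, 10.4% for Ifi35 and 10% for Ifitm3. Annotated exons of Irf1, Irf7 and Irf9 also overlap those of another gene, and their shares were 1.24%, 0% and 1.82%.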

Additional observations from a re-analysis of the deposited data

How the results depend on the processing

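Under 14 other settings chosen with the design the number of interferon-stimulated genes called lower stayed between 26 and 31 and the number called higher was 0. Of the 29 lower genes, 25 kept their call under all 14, and 4 lost it under at least 1: Ifit3 (adjusted p up to 0.0914), Oas2 (up to 0.143), Oasl1 (up to 0.0699) and Xaf1 (up to 0.0705). Ifit3 lost its call without WT replicate 1 or 3 or DISC1-Δ3 replicate 3, with DESeq2 and with library totals, Oasl1 without WT replicate 1 or DISC1-Δ3 replicate 2, Oas2 without WT replicate 1 or 2 or DISC1-Δ3 replicate 1 or 2, with library totals and with limma, and Xaf1 with limma. Ifit2, Oas1a and Eif2ak2 passed the threshold without DISC1-Δ3 replicate 3 (adjusted p = 0.00489, 0.0411 and 0.0172), and Ifit2 and Oas1a also passed with all libraries under median-of-ratios scaling (adjusted p = 0.0431 and 0.0467). The median of -0.47 became -0.48 with genes of at least 1 RPKM, -0.38 with library totals only, -0.35 with limma on log2(RPKM + 1) and -0.38 with limma on log2(RPKM + 0.1), and ranged from -0.51 to -0.46 with 1 library left out. Library totals moved the median of all genes to 0.09 and the calls over all genes from 2807 higher and 2691 lower to 4126 higher and 1836 lower, and limma on log2(RPKM + 1) gave 3983 and 1774. Scaling to microglial markers, added after the data were seen, moved the median of the members to 0.07, with 6 higher and 4 lower. Ddx58 was at -0.02 without WT replicate 1 and -0.06 without DISC1-Δ3 replicate 2, and Ifi44 at -0.00 with no filter, -0.01 with median-of-ratios scaling, and between -0.13 and 0.13 with 1 library left out; the cause was not tested.

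With the replicate number as a block, 29 members were lower, 0 were higher, the median was -0.47 and Ifi44 was at -0.00, and Ifit2 gained a call (adjusted p = 0.0465) and Oas2 lost one (adjusted p = 0.0636). Deviations from the group means had correlations of 0.0409, 0.0445 and 0.00414 between libraries of the same number. Between libraries of different number they ran from -0.0431 to 0.00318. Values this small, from so few libraries, do not settle whether the number pairs them. Depth limits Ifit1, Ifi44 and Oas3, which had at most 54 reads in a library.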
